A study of Homo sapiens with 8 samples.

Results

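The NF-κB subunits and their feedback targets were followed as 8 genes in SK-MEL-5, a long-established line of human melanoma cells. They are the subunit genes NFKB1, NFKB2, REL, RELA and RELB, the inhibitor genes NFKBIA and TNFAIP3, and the cytokine gene IL6. Members were all probe sets of the deposited table whose only gene symbol in the platform annotation was one of these names. This gave 15 of the 45284 probe sets with 1 symbol, and 8 of the 18244 genes that such probe sets cover. For each gene its brightest probe set was used, and all 8 passed the filter on low signal that left 11946 genes for testing.

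NF-κB is a family of transcription factors that work as pairs of subunits. In resting cells the pairs are held in the cytoplasm by inhibitor proteins such as IκBα, the product of NFKBIA, until signals from cytokine or Toll-like receptors lead to destruction of the inhibitor. RELA, REL and the p50 product of NFKB1 serve this canonical route, and RELB with the p52 product of NFKB2 serves a slower, noncanonical one. Active NF-κB induces its own brakes, NFKBIA and the ubiquitin-editing enzyme TNFAIP3 (A20), as well as NFKB1, NFKB2, REL, RELB and cytokines such as IL6, and melanoma cells often have NF-κB activity without an added stimulus.

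NF-κB pairs bind a short motif, the κB site, and the stretches that hold it are shown because every member with a promoter entry except RELA had a match. NFKB2 had 4 such stretches in 2 of its windows, and the one with overlapping matches on both strands stands for them. RefSeq promoter windows (GRCh38.p14, the 250 bases before an annotated gene start) were searched on both strands for the kappa B consensus. This was GGG, A or G, any base, A or T, C or T, C or T, and CC. Matches that fit within 30 bases are shown as 1 stretch. Capitals mark the matched bases, and each stretch is written 5′ to 3′ on the strand of its gene.
NFKB1 (chr4:102501300-102501329, plus strand): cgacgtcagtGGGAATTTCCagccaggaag
NFKB2 (chr10:102394462-102394491, plus strand): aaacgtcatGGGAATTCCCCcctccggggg
REL (chr2:60881518-60881547, plus strand): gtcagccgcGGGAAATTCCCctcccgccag
NFKBIA (chr14:35404811-35404840, minus strand): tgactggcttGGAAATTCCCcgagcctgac
TNFAIP3 (chr6:137867188-137867217, plus strand): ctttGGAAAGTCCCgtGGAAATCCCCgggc
IL6 (chr7:22727117-22727146, plus strand): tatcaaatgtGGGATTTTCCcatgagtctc

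A kappa B consensus lay in 7 of the 11 promoter windows of these genes (63.6%), and in 1828 of all 35116 windows (5.21%). TNFAIP3 held 2 matches side by side. Neither of the 2 RELA windows had a match, and RELB had no entry in the promoter table. These genes include textbook NF-κB targets, so the share describes known targets, and a match is not shown here to be a bound site. The TATA core TATAAA, searched the same way, was in 1 of the 11 windows (NFKBIA) and in 10.7% of all windows. The stretches lay between 91 and 27 bases before the start for NFKB1, REL, NFKBIA, TNFAIP3 and IL6. The TNFAIP3 stretch and the NFKB2 stretch lie inside the annotated gene spans, before a downstream start.

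The 8 arrays form 4 groups of 2. DMSO cells received the solvent at 25 uM as the labels write it, and THZ1 cells received 250 nM THZ1, which binds the transcriptional kinase CDK7 covalently and blocks it, with the same DMSO for 6 h. The siCtrl cells received a non-targeting siRNA, and the siMITF cells an siRNA to MITF, a master regulator of the melanocyte lineage. The siRNA harvest time is not given in the sources used here, and the labels give no time for the DMSO group. No inflammatory stimulus is named for any group, and all groups are the same unedited line.

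Signals are MAS5 intensities that the authors deposited as cell number-normalized values, by a calculation not given in the sources used here. They are called per-cell signals, and log2 changes are on the log2(signal + 16) scale. The median gene fell by 0.16 with THZ1 and by 0.63 with siMITF on that scale. A relative scale, on which each array was centred on its median gene, was therefore used beside it, with the median gene then at 0.037 and 0.0014. In a bulk sample of 1 line, a change in all cells and a change in part of the cells cannot be told apart. Changes were tested with limma over all 8 arrays, with a Benjamini-Hochberg adjusted p under 0.05. Whether the 2 arrays within a group stem from separate cultures is not in the labels, so p-values reflect only the spread between the arrays, which may be technical. No difference in level between the drug and siRNA arrays was tested. The reason was the median signal of the ERCC spike-in probe sets, 48.0 to 53.9 in the first set and 27.6 to 30.7 in the second.

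The MITF probe set read 3436 and 3936 in the siCtrl arrays and 1747 and 1168 in the siMITF arrays, so the targeted gene was lower in both siMITF arrays (log2 change per cell -1.35, SE 0.25, limma adjusted p 1.62e-06). Relative to the median gene the MITF change was smaller, -0.72 (limma adjusted p 3.25e-04). With THZ1, MITF changed by -0.47 per cell (limma adjusted p 0.280) and by -0.27 relative (0.0498), so on the relative scale it was called lower with both treatments. CDK7 is inhibited as a protein by THZ1, so its mRNA does not check the drug. All 8 of the 9 melanocyte markers that had a probe set were above the cut of 39.2. Of the 7 leukocyte markers 6 had a probe set and 1, CD68, was above it, while PTPRC and CD3E were below. On the relative scale CD68 was called higher with THZ1 (0.28) and lower with siMITF (-0.24). Of the keratinocyte markers 1 of 6 passed it. The fibroblast markers LUM, DCN and PDGFRA, 3 of 6, also passed it, with collagens below it.

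With THZ1, IL6 fell and the other 7 genes did not pass the test on either scale. IL6 was the 1 member of 8 called lower per cell, beside 10.0% of all tested genes called lower and 0.0753% called higher. On the relative scale it was again the 1 member called lower, beside 21.1% lower and 17.7% higher of all genes. The median change of the 8 genes was -0.37 per cell (all genes -0.16) and -0.17 relative (all genes 0.037). Unadjusted p was under 0.05 for 1 member per cell and for 3 on the relative scale. Averaging the probe sets of a gene in place of taking the brightest gave 0 members lower per cell (2 at an unadjusted p under 0.05). On the relative scale it gave 5 lower: REL, RELA, RELB, NFKBIA and IL6. RELB has 1 probe set, so its own values were not averaged. Its call (-0.26, limma adjusted p 0.0420) came in a fit with another set of tested genes, which also sets the centre of each array. Of the 10690 genes tested in that way, 835 were lower per cell and 2293 on the relative scale. Both THZ1 arrays lay below both DMSO arrays in 3 of the 8 genes per cell (30.0% of all genes) and in 6 on the relative scale (32.0%). None of the 8 had both THZ1 arrays above both DMSO arrays, as 0.871% and 38.0% of all genes did.

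With siMITF, 5 of the 8 genes fell per cell, namely NFKB1, REL, RELA, NFKBIA and TNFAIP3, in a setting where 63.4% of all tested genes were called lower and 0.326% higher. The median change of the 8 genes, -0.64, was close to that of all genes, -0.63. Relative to the median gene, NFKB1 and TNFAIP3 were called lower (24.7% of all genes were) and NFKB2 and IL6 higher (19.5% of all genes were). The count of 5 rested on single arrays. Without siCtrl replicate 2, and likewise without siMITF replicate 2, NFKB1 and TNFAIP3 were the 2 members still called lower. Both siMITF arrays lay below both siCtrl arrays in 7 of the 8 genes per cell (89.0% of all genes, with 0.929% above). After centring on the median gene they lay below in 3 (38.0%) and above in 3 (35.3%).

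The per-cell tests lean on a spread pooled over all genes. With each gene's own variance, limma called 0 of 11946 genes per cell with either treatment, although unadjusted p was under 0.05 for 1444 genes with THZ1 (1 of the 8 members) and for 5706 with siMITF (3 of the 8).

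**Figure D1:**
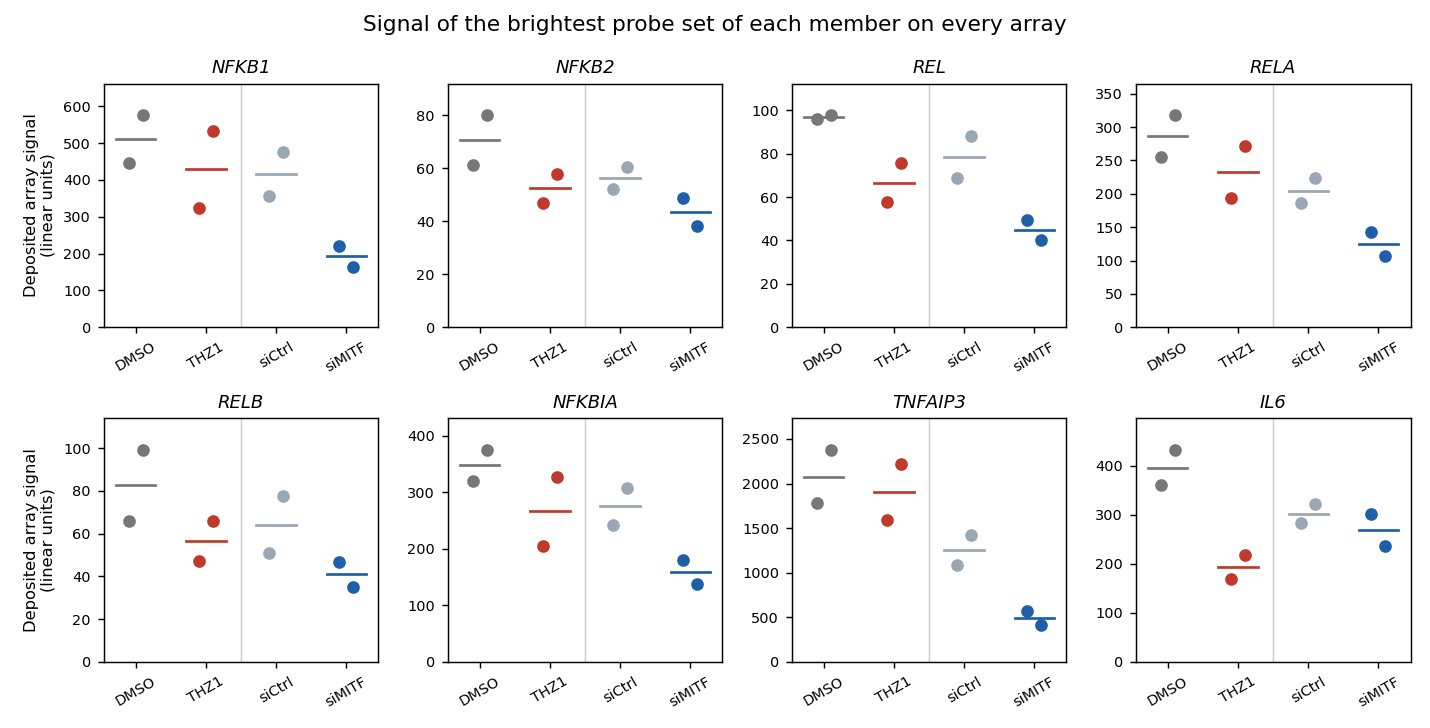
Signal per cell of the brightest probe set of each of the 8 genes in every array (vertical axis, deposited linear array signal from 0, with its own range for each gene). The 2 points of each group are its arrays and the bar is their mean. IL6 at 169 and 219 with THZ1 lies below 361 and 432 with DMSO, and TNFAIP3 at 572 and 412 with siMITF lies below 1088 and 1422 with siCtrl.

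NFKB1, on chromosome 4, encodes the p105 precursor that is processed to p50. Its signal was 446 and 575 with DMSO and 325 and 533 with THZ1. The siCtrl arrays read 356 and 477, and the siMITF arrays read 220.0 and 164. The THZ1 arrays overlapped the DMSO range, whereas both siMITF arrays lay below both siCtrl arrays. With siMITF, NFKB1 fell 2.07-fold per cell (log2 change -1.05, SE 0.25, limma adjusted p 1.67e-04). Its relative fall was 1.34-fold (-0.42, SE 0.10, limma adjusted p 0.00821). The relative call was lost without siCtrl replicate 2 (-0.34) and without siMITF replicate 2 (-0.37). Both the relative and the per-cell call were lost after quantile normalization (-0.21, limma adjusted p 0.0647). Both were also lost with each gene's own variance in limma (adjusted p 0.0711 relative and 0.0944 per cell). With THZ1 the log2 change was -0.27 per cell (limma adjusted p 0.722) and -0.07 relative (0.597). Without THZ1 replicate 1 it was 0.07 per cell.

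RELA, on chromosome 11, encodes p65, the main activating subunit of the canonical pathway. Its brightest probe set read 255 and 318 with DMSO, 194 and 272 with THZ1, 186 and 223 with siCtrl, and 143 and 107 with siMITF. The siMITF arrays lay below the siCtrl arrays, and the THZ1 and DMSO arrays overlapped. With siMITF, RELA fell per cell by 0.65 on the log2 scale (1.57-fold, SE 0.25, limma adjusted p 0.0166) and stood at -0.02 relative to the median gene (limma adjusted p 0.842). Its fall was therefore about as large as the fall of the median gene. All 3 RELA probe sets were called lower per cell with siMITF, by 0.65 to 0.83 on the log2 scale. THZ1 gave -0.29 per cell (limma adjusted p 0.680) and -0.09 relative (0.328).

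REL, on chromosome 2, encodes c-Rel, a subunit best known from lymphocytes. The signal was 95.9 and 97.7 with DMSO and 57.6 and 75.8 with THZ1, and 69.0 and 88.3 with siCtrl against 49.4 and 40.2 with siMITF. Both treated arrays were below both control arrays in either comparison. With siMITF, REL fell 1.55-fold per cell (-0.64, SE 0.25, limma adjusted p 0.0192) but was at -0.0033 relative to the median gene (limma adjusted p 0.980). Its change with THZ1 was -0.46 per cell (limma adjusted p 0.300) and -0.26 relative (SE 0.094, limma adjusted p 0.0536), just outside the threshold. The second REL probe set, an _x_at design, had a change of -0.35 per cell with siMITF and did not pass (limma adjusted p 0.175).

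The siMITF calls of REL, RELA and NFKBIA per cell rested on single arrays. Without siCtrl replicate 2 their changes were -0.49, -0.53 and -0.57, with limma adjusted p of 0.221, 0.191 and 0.161. Without siMITF replicate 2 they were -0.53, -0.47 and -0.56, with limma adjusted p of 0.191, 0.241 and 0.168. After quantile normalization, which removes the shift of the median gene, RELA was at 0.12 and NFKBIA at 0.083.

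NFKB2, on chromosome 10, encodes the p100 precursor of p52, the noncanonical subunit. Its signal was low, 61.1 and 80.0 with DMSO, 47.0 and 57.9 with THZ1, 52.2 and 60.6 with siCtrl, and 48.8 and 38.1 with siMITF. Both treated arrays lay below both controls per cell in either comparison, without passing the test (log2 change -0.33, limma adjusted p 0.566 with THZ1, and -0.29, limma adjusted p 0.270 with siMITF). NFKB2 was higher with siMITF on the relative scale (0.34, SE 0.079, limma adjusted p 0.00633), the opposite sign to its per-cell value. The relative call was lost when no filter on dim probe sets was used (0.16, adjusted p 0.257).

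RELB, on chromosome 19, encodes the partner of p52. Signals were 66.0 and 99.0 with DMSO, 47.1 and 66.1 with THZ1, 50.8 and 77.7 with siCtrl, and 46.8 and 35.0 with siMITF. The DMSO and THZ1 arrays touched at the edge of their ranges, and the siMITF arrays lay below the siCtrl arrays. No RELB change passed within either comparison: THZ1 gave -0.43 per cell (limma adjusted p 0.345) and -0.23 relative (0.0768), and siMITF gave -0.48 per cell (0.0704) and 0.15 relative (0.226). The siMITF change per cell lay near the threshold and passed in 8 of 18 alternatives, with log2 changes of -0.48 to -0.73 in those 8.

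NFKBIA, on chromosome 14, encodes IκBα, the inhibitor that NF-κB itself induces. Its brightest probe set read 321 and 374 with DMSO, 205 and 327 with THZ1, 242 and 308 with siCtrl, and 180 and 138 with siMITF. THZ1 replicate 1 was low, and THZ1 replicate 2 lay within the DMSO range. With siMITF, both arrays were below siCtrl and NFKBIA fell 1.67-fold per cell (-0.74, SE 0.25, limma adjusted p 0.00722), but not relative to the median gene (-0.10, limma adjusted p 0.371). With THZ1 the change was -0.40 per cell (limma adjusted p 0.424) and -0.20 relative (0.108). The 3 NFKBIA probe sets were all called lower per cell with siMITF, by 0.74 to 0.80. With THZ1 they gave -0.34, -0.40 and -0.57 per cell, and 1 of them passed on the relative scale (-0.37, limma adjusted p 0.0241).

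TNFAIP3, on chromosome 6, encodes A20, which removes activating ubiquitin chains from signalling proteins such as RIPK1. The brightest probe set read 1783 and 2375 with DMSO and 1590 and 2215 with THZ1. The siCtrl arrays read 1088 and 1422, and the siMITF arrays 572 and 412. The DMSO and THZ1 values overlapped almost entirely, and the siMITF values lay well below both siCtrl values. With siMITF, TNFAIP3 fell 2.51-fold per cell (log2 change -1.33, SE 0.25, limma adjusted p 2.38e-06), rank 301 from the lowest of 11946 genes. Relative to the median gene it fell 1.62-fold (-0.70, SE 0.088, limma adjusted p 2.43e-04), and that call was kept under all 18 alternatives tried. With THZ1 its change was -0.13 per cell (limma adjusted p 0.947) and 0.07 relative (0.570). Its second probe set read 525 and 614 with DMSO, 511 and 761 with THZ1, 375 and 497 with siCtrl, and 176 and 137 with siMITF. That probe set gave -1.39 per cell with siMITF, close to the first, and 0.33 relative with THZ1, which passed (limma adjusted p 0.0152), unlike the first.

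IL6, on chromosome 7, encodes interleukin-6, a cytokine that melanoma cells can secrete. Its brightest probe set read 361 and 432 with DMSO and 169 and 219 with THZ1, and 283 and 322 with siCtrl and 301 and 237 with siMITF. Both THZ1 arrays were far below both DMSO arrays, while the siMITF and siCtrl arrays overlapped. With THZ1, IL6 fell 1.97-fold per cell (-0.98, SE 0.25, 95% interval -1.46 to -0.50, limma adjusted p 0.00187), rank 435 from the lowest of 11946 genes. The relative fall was 1.71-fold (-0.78, SE 0.071, limma adjusted p 3.37e-05). The per-cell call was lost without DMSO replicate 2 (-0.85, adjusted p 0.140) and without THZ1 replicate 1 (-0.81, adjusted p 0.0821), and the relative call was kept in all 18 alternatives. With siMITF, IL6 was -0.17 per cell (limma adjusted p 0.520) and higher by 0.46 on the relative scale (1.38-fold, SE 0.071, limma adjusted p 7.22e-04). That relative call was lost when no filter was used (0.28, adjusted p 0.0556).

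The IL6 fall with THZ1 came from 1 of the 2 IL6 probe sets. The dimmer one read 41.5 and 59.2 with DMSO and 40.02 and 43.1 with THZ1, near the cut of 39.2, and gave -0.19 per cell (limma adjusted p 0.907) and 0.01 relative (0.972). Averaging both sets gave -0.59 per cell (limma adjusted p 0.0838) and -0.41 relative. With siMITF the dimmer set also passed on the relative scale (0.33, limma adjusted p 0.0335). All groups are the SK-MEL-5 line. The summed signal of the 6 fibroblast markers was 2370 to 2843 with DMSO and 2658 to 3449 with THZ1. The same sum was 1539 to 1873 with siCtrl and 746 to 979 with siMITF, and its relation to the IL6 values was not tested. These sums are per cell, where the median gene fell too. Relative to the median gene, the 3 tested markers went different ways with siMITF: LUM was lower (-0.43), and DCN (0.20) and PDGFRA (0.39) were higher. With THZ1 all 3 were higher on that scale (0.42, 0.51 and 0.25).

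**Figure D2:**
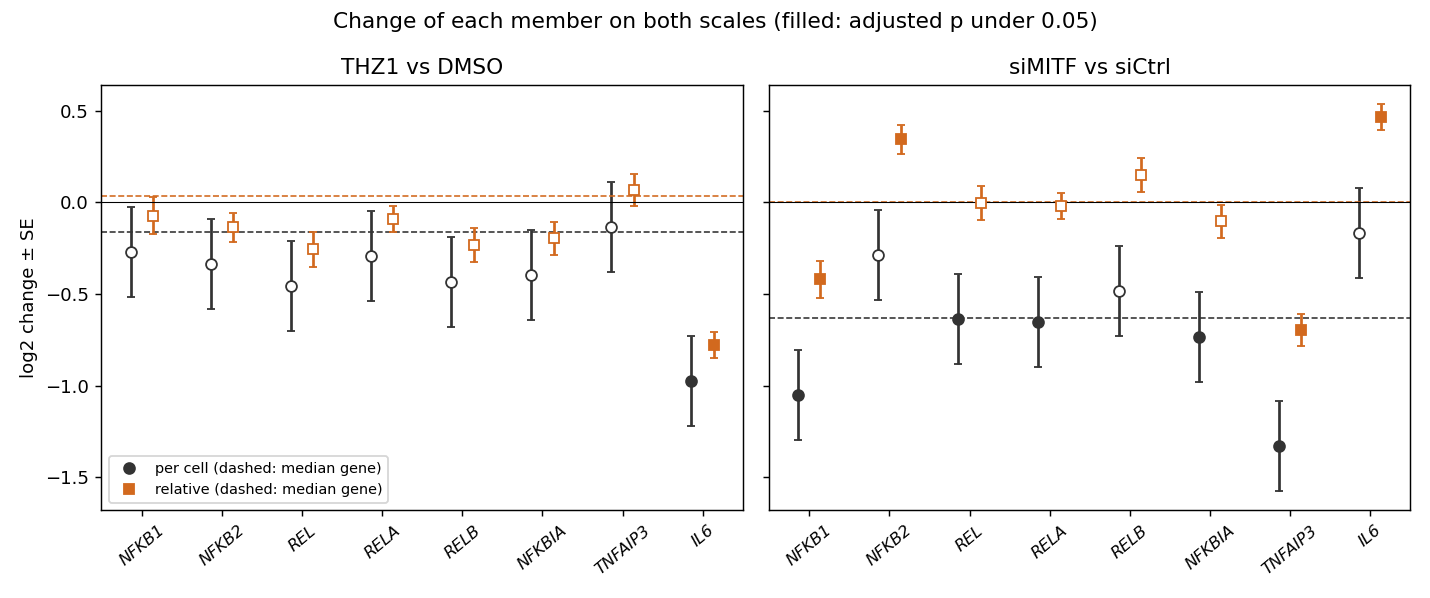
Log2 change of each of the 8 genes with THZ1 (against DMSO) and siMITF (against siCtrl) on the per-cell (circles) and the relative scale (squares). Bars are 1 SE, filled symbols passed limma's adjusted p under 0.05, and dashed lines mark the median gene. IL6 is the gene that fell with THZ1 on both scales (-0.98 and -0.78), and TNFAIP3 and NFKB1 fell with siMITF on both scales.

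The changes with THZ1 and with siMITF were then set against each other by testing their difference (THZ1 change minus siMITF change), and the 2 sides share no array. On the per-cell scale 1 of 8 members passed, TNFAIP3 at 1.20 (SE 0.35, limma adjusted p 0.0150), where 9.84% of all genes were higher and 0.946% lower. On the relative scale TNFAIP3 was higher by 0.76 (SE 0.12, limma adjusted p 0.00102), and IL6 (-1.24, SE 0.10, limma adjusted p 3.11e-05), NFKB2 (-0.48, SE 0.11, limma adjusted p 0.00682) and RELB (-0.38, SE 0.13, limma adjusted p 0.0435) were lower. Of all genes 21.4% were higher and 20.2% lower on that scale. IL6 and TNFAIP3 thus differed in opposite directions on the relative scale. The other 4 genes did not pass, with differences of 0.35 for NFKB1 (SE 0.14), -0.25 for REL (SE 0.13), -0.07 for RELA (SE 0.10) and -0.09 for NFKBIA (SE 0.13).

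The TNFAIP3 difference per cell was lost without DMSO replicate 1, THZ1 replicate 2, siCtrl replicate 2 or siMITF replicate 2 (0.99, 0.96, 1.01 and 0.97, with limma adjusted p 0.208, 0.119, 0.238 and 0.241). The relative differences of TNFAIP3 and IL6 passed in all 17 alternatives, and that of RELB was lost in 11 of 17 and that of NFKB2 in 1, when no filter was used (-0.35, adjusted p 0.129). Without DMSO replicate 2, THZ1 replicate 1, THZ1 replicate 2, siCtrl replicate 1, siMITF replicate 1 or siMITF replicate 2 the RELB difference was -0.29, -0.39, -0.37, -0.26, -0.37 and -0.39.

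The same contrast can be read within an array, where the offset subtracted for the relative scale cancels. With 16 added to each signal, a scaling of the signals themselves cancels only in part. The log2 ratio of TNFAIP3 over IL6 was higher by 0.78 and 0.91 in the THZ1 arrays than the DMSO mean, against 0.081 to each side in the DMSO arrays. In the siMITF arrays it was lower than the siCtrl mean, by -1.10 and -1.23, against 0.10 to each side in the siCtrl arrays. The ratio of NFKB1 over NFKB2 was lower by -0.70 and -0.83 with siMITF, and it was -0.17 and 0.29 with THZ1. The ratios show that the paired genes changed by unequal amounts, not which one moved.

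All 15 probe sets were tested in a fit over 27170 probe sets. Per cell, 14 of 15 had a change below 0 with THZ1 and 15 of 15 with siMITF, and 1 and 10 of them were called lower (7.19% and 65.1% of all probe sets were, with 0.114% and 0.294% higher). On the relative scale 2 were lower and 1 higher with THZ1, where 16.9% and 18.4% of all probe sets were, and 3 were lower and 3 higher with siMITF (25.0% and 18.5%). Sets with names in _x_at or _s_at, which RELA, REL, NFKBIA and TNFAIP3 have, can detect related sequences.

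**Figure D3:**
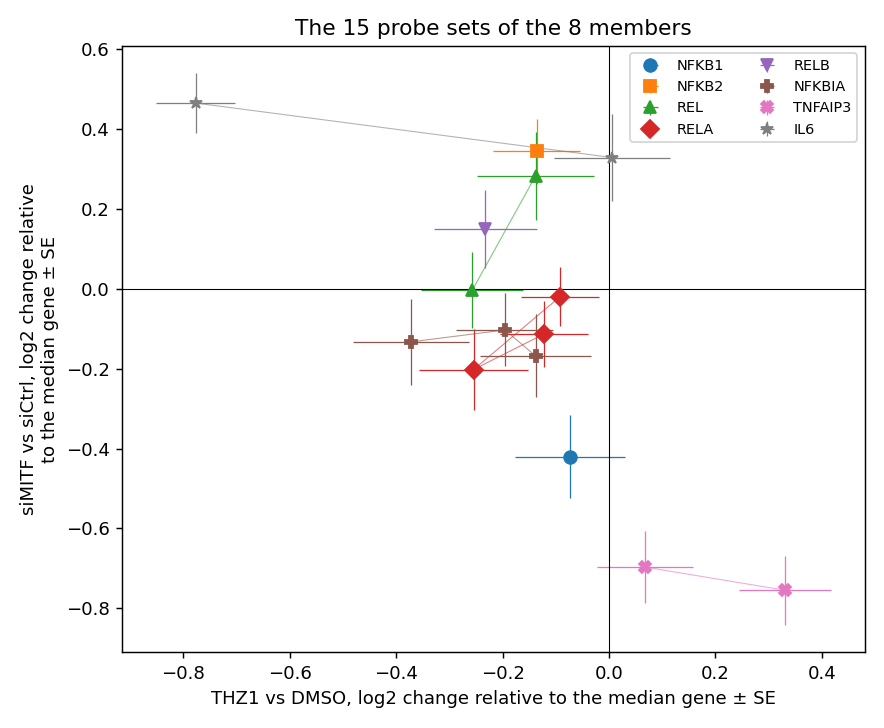
Relative log2 change of each of the 15 probe sets of the 8 genes with THZ1 (horizontal axis) against that with siMITF (vertical axis), with bars of 1 SE and lines that join the probe sets of a gene. The 2 TNFAIP3 sets lie at like heights (-0.70 and -0.75 with siMITF), and the 2 IL6 sets lie apart along the THZ1 axis (-0.78 and 0.01).

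The relative patterns of the 8 genes were also correlated over the 8 arrays, which fall into 4 groups, with the drug and siRNA sets each centred on its own mean so that level differences between the sets do not enter. TNFAIP3 followed NFKB1 (Pearson r 0.90) and ran opposite to NFKB2 (r -0.92) and, less closely, IL6 (r -0.58), while IL6 followed NFKB2 (r 0.76) and RELB (r 0.75). Without that centring, level differences between the sets enter too, and the same pairs gave r of 0.80, -0.95, -0.79, 0.87 and 0.85. The genes most like each member were ranked without it. Among 11728 genes in no list, those whose relative pattern was most like that of TNFAIP3 were RELL1 (r 0.997) and SNX18 (r 0.996), and those most like IL6 were LMCD1 and CLDN14 (r 0.996 each). TBRG4 (0.994) and MRI1 (0.987) were nearest to NFKB1, and SYT17 (0.993) and SNHG32 (0.991) to NFKB2. For the rest the nearest were CYTH2 (0.967) and GTPBP10 (0.964) to REL, GPAM (0.986) and NAP1L5 (0.979) to RELA, RC3H1 (0.977) and AGAP1 (0.975) to RELB, and RRP1B (0.966) and NFX1 (0.963) to NFKBIA. With each set centred, the r of these 16 pairs lay between 0.948 and 0.996. These are the highest of many correlations and are given as descriptions only.

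The rest of the pathway was taken from lists of receptors and adaptors, kinases, inhibitors and ubiquitin regulators, inducible targets, and the IL-6 receptor pathway. Of the receptors and adaptors 17 of 24 were tested, and with THZ1 6 of them fell per cell and 10 on the relative scale, beside 10.0% and 21.1% of all genes. FADD, the adaptor of death receptors, went from 2217 and 2844 with DMSO to 602 and 843 with THZ1, without overlap. It fell by 1.79 on the log2 scale (limma adjusted p 2.64e-10). TNFRSF1A, the main TNF receptor, fell by 1.03 (adjusted p 9.00e-04), with 486 and 643 against 224 and 315. TRAF6, the ubiquitin ligase below Toll-like and IL-1 receptors, fell by 0.99, as did TLR4. The median of the 17 genes was -0.46 per cell (all genes -0.16) and -0.26 relative (all genes 0.037).

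With siMITF, 14 of these 17 receptors and adaptors fell per cell and 5 fell and 2 rose relative to the median gene, with medians of -0.70 and -0.07 (all genes -0.63 and 0.0014). Of all genes 63.4% fell per cell, and 24.7% fell and 19.5% rose on the relative scale. The kinase IRAK1 (-1.15, limma adjusted p 4.26e-05), the IL-1 receptor subunit IL1RAP (-1.10), TRAF6 (-1.04) and FADD (-0.97) were among those that fell per cell, and each fell relative to the median gene too. TNFRSF1A was higher relative to the median gene with siMITF (0.33), as was the adaptor MYD88 (0.24), while neither rose per cell.

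Of 12 kinases 11 were tested. With THZ1, 0 passed per cell in limma (2 at an unadjusted p under 0.05), where 10.0% of all genes were lower. On the relative scale TAB1 (-0.34) and MAP3K3 (-0.30) fell and IKBKB (0.24), the catalytic IκB kinase, rose. Of all genes 21.1% fell and 17.7% rose on that scale. With siMITF, 5 of the 11 fell per cell, a smaller share than the 63.4% of all genes. Relative to the median gene 0 passed in limma (3 at an unadjusted p under 0.05), beside 24.7% of all genes lower and 19.5% higher. CHUK, the other IκB kinase, fell by 1.08 per cell (limma adjusted p 1.08e-04), and TAB3 (-0.86), TBK1 (-0.83) and TAB2 (-0.68) fell too.

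All 18 inhibitors and ubiquitin regulators were tested. With THZ1, NFKBIE, the gene of IκBε, fell per cell (-0.80, limma adjusted p 0.0164) and was the 1 of 18 that did, beside 10.0% of all genes. On the relative scale 3 fell and 4 rose (21.1% and 17.7% of all genes). Those that fell were NFKBIE, OTUD7B (-0.39) and N4BP1 (-0.30), and COMMD1 (0.28), which limits RELA on chromatin, was among those that rose. With siMITF, 12 of 18 fell per cell, close to the share of all genes (63.4%), and 1 fell and 2 rose relative to the median gene (24.7% and 19.5% of all genes). OTUD7B, a deubiquitinase of the A20 family, fell on both scales (-1.27 per cell, limma adjusted p 6.15e-06, and -0.64 relative). The 2 that rose relative to the median gene were BCL3 (0.59), an atypical IκB protein, and TNIP1 (0.30), an A20 partner.

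Of 26 inducible targets 15 were tested. With THZ1, CFLAR, which blocks caspase-8, fell per cell (-0.85, limma adjusted p 0.00866), beside 10.0% of all genes. On the relative scale CFLAR (-0.65), the chemokine CXCL1 (-0.39), IRF1 (-0.25) and LIF (-0.23) fell, and the mitochondrial enzyme SOD2 rose (0.58). Of all genes 21.1% fell and 17.7% rose relative to the median gene. With siMITF, 11 of 15 fell per cell, beside 63.4% of all genes. The survival gene BCL2A1, which is also a known MITF target, fell most by the test (-1.47 per cell, limma adjusted p 1.95e-07), from 638 and 750 to 280 and 205, and SOD2 fell by 0.99. Both also fell relative to the median gene (-0.84 and -0.35), and CXCL1 (0.23), CXCL2 (0.42), IRF1 (0.30) and PTGS2 (0.53) rose on that scale. Among all genes 24.7% fell and 19.5% rose there.

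The difference between treatments was tested for the inducible targets too. On the relative scale 2 of 15 were higher with THZ1 than with siMITF, SOD2 (0.93) and BCL2A1 (0.83), and 5 were lower, CXCL1 (-0.63), CXCL2 (-0.61), IRF1 (-0.55), CFLAR (-0.55) and LIF (-0.31), beside 21.4% of all genes higher and 20.2% lower. SOD2 and BCL2A1 were also higher per cell (1.37 and 1.27). All of these calls are from limma over 11946 genes.

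All 11 genes of the IL-6 receptor pathway were tested. With THZ1, 0 passed per cell in limma (2 at an unadjusted p under 0.05), where 10.0% of all genes were lower. On the relative scale SOCS3 (-0.38), the feedback inhibitor of the pathway, and IL6R (-0.36), its receptor, fell. The kinase TYK2 (0.44) and the transcription factor STAT3 (0.43) were among 4 that rose, beside 21.1% of all genes lower and 17.7% higher. With siMITF, IL6R (-1.15), JAK1 (-0.76), OSMR (-0.66) and SOCS3 (-0.53) fell per cell, 4 of 11, where 63.4% of all genes fell. Relative to the median gene IL6R fell (-0.51) and STAT3 (0.53), PIAS3 (0.49) and LIFR (0.36) rose, beside 24.7% of all genes lower and 19.5% higher. The gene of the cytokine and the gene of its receptor were therefore both lower with THZ1 on the relative scale, and with siMITF the cytokine was higher and the receptor lower on it.

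**Figure D4:**
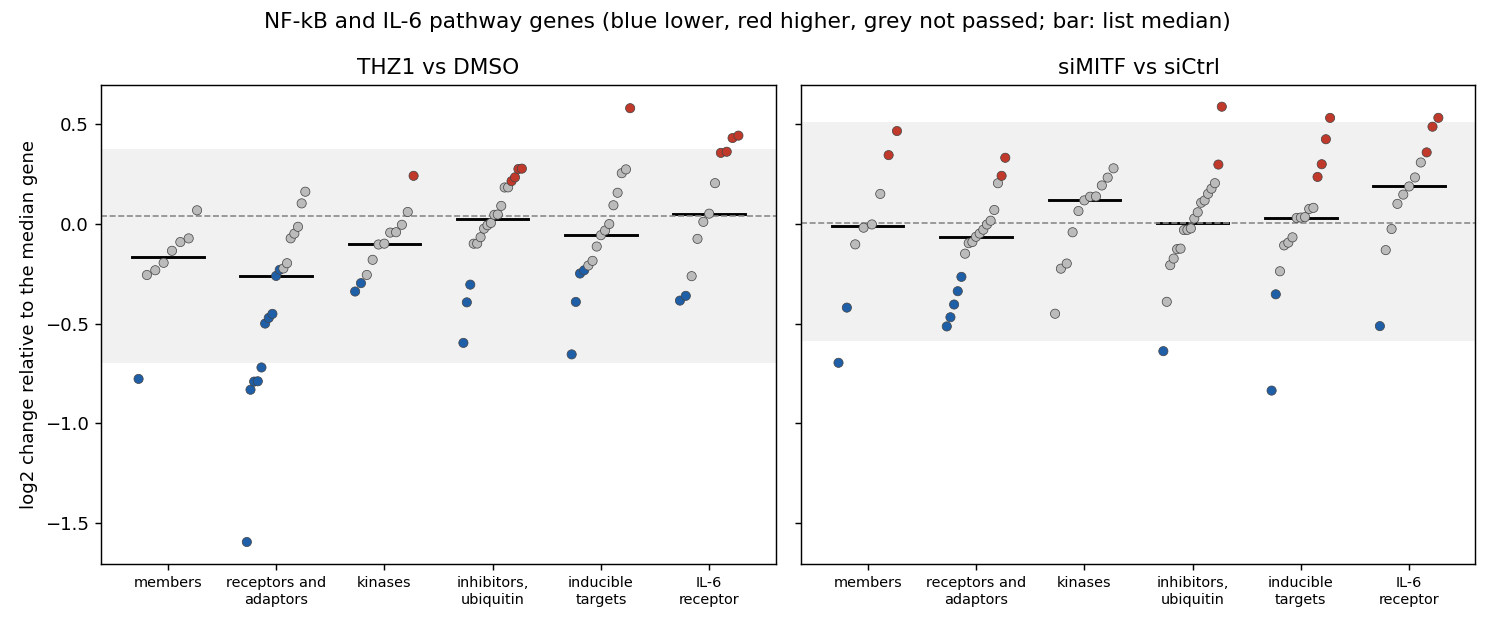
Relative log2 change of the 8 members and of every tested gene of the 5 pathway lists with THZ1 and with siMITF. Points are genes (blue lower, red higher, grey not passed), bars are list medians, the dashed line is the median of all genes and the shaded band runs from their 5th to their 95th percentile. The receptors and adaptors had the lowest list median with THZ1 (-0.26), and the list medians with siMITF lay between -0.07 and 0.19.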

How the data were processed

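Gene expression was measured on 8 Affymetrix arrays of SK-MEL-5 cells. The authors summarised probe sets with MAS5, per the submitters' processing notes (no version given), and deposited linear signal intensity values, which the series' design text calls cell number-normalized. The calculation is not given in the sources used here.

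Symbols came from the platform annotation, and gene IDs of 45214 of 45284 single-symbol probe sets matched RefSeq (GRCh38.p14). Values were analysed as log2(signal + 16). The brightest single-symbol probe set stood for a gene, tested if its mean log2 signal reached the 40th percentile of these probe sets (signal 39.2). For the relative scale, each gene's mean was removed and the median of what remained was subtracted from each array. limma 3.58.1 (R 4.3.3) fitted 1 mean per group with empirical Bayes variances, and p-values were Benjamini-Hochberg adjusted over all tested genes. The script was tested on simulated data. Promoters were searched in Python 3.11.15. Per cell the prior degrees of freedom were infinite, so every gene had the SE 0.25, whereas the median relative SE was 0.084. No depth applies to arrays, and 2 per group limits the precision.

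The members and lists were chosen with earlier results of these data known. The text names all members, MITF, CDK7, and from each list up to 4 genes per comparison with the lowest per-cell adjusted p among those passing on either scale. It also names the 2 genes of no list most like each member. Other list genes that passed on the relative scale, and CD68, PTPRC, CD3E and the fibroblast markers, were named after their values were seen. CDK7 changed by -0.60 per cell (limma adjusted p 0.105) and fell by 0.41 relative with THZ1 (limma adjusted p 0.00148). Alternatives were other pseudocounts, no filter, averaged probe sets, quantile normalization, other variance models, only the 4 arrays of a comparison, replicate blocks and leaving out each array. Centring each set of arrays before correlation was added after seeing the data.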

Additional observations from a re-analysis of the deposited data

Results flagged for a closer look

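The change with THZ1 and the change with siMITF differed by the limma contrast of the 2 changes in 4 of the 8 genes. Among all tested genes the relative changes differed in 21.4% upward and 20.2% downward, so this count is near the general share. TNFAIP3 differed by 1.20 per cell (limma adjusted p 0.0150) and by 0.76 on the relative scale (0.00102). IL6 differed by -1.24 on the relative scale (limma adjusted p 3.11e-05), NFKB2 by -0.48 (0.00682) and RELB by -0.38 (0.0435), a call that was lost in 11 of 17 alternatives. The 2 comparisons also differ in treatment kind and in the set of arrays, and the part of these in the differences cannot be told apart.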

How the results depend on the processing

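Of 848 values of the 8 genes under alternatives, 734 kept direction and side of the threshold, 42 lost the call, 38 gained one and 34 changed sign, 2 of these from a called value (RELA and NFKBIA with siMITF per cell, under quantile normalization). The causes were not tested unless stated. Many alternatives cannot move the log2 change of a treatment against its control, only its p-value. These are the variance models, the fit of only the 4 arrays, the replicate blocks, and leaving out an array of the other comparison. Quantile normalization gave the same values on both scales and is counted for each. The counts of alternatives in which a call or direction was kept are therefore not counts of independent checks. With log2(value + 1), 2 members were lower with THZ1 on the relative scale, and RELA with siMITF was at 0.019. With log2(value + 64), 2 members had a higher relative difference between treatments, and REL with siMITF was at 0.073 relative. With no filter, where more genes set the centre of each array and the median gene moved with siMITF from -0.63 to -0.45 per cell, 0 members were higher with siMITF on the relative scale in limma (4 in either direction at an unadjusted p under 0.05) and 1 had a lower relative difference. RELB with siMITF was then at -0.032, and the relative differences of NFKBIA and RELA at 0.040 and 0.060. Averaged probe sets gave 0 members lower with THZ1 per cell (2 at an unadjusted p under 0.05), 5 lower relative, and REL with siMITF at 0.10 relative. Of the 10690 genes tested with averaging, 835 were lower with THZ1 per cell and 2293 relative.

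Quantile normalization moved the median gene to 0.017 with THZ1 and 0.014 with siMITF. It gave 2 members lower with THZ1 (1 in the values reported, on both scales), 1 lower and 2 higher with siMITF (5 and 0 per cell, 2 lower relative), and 2 with a lower per-cell difference. IL6 with siMITF was then at 0.74, NFKB2 at 0.20, NFKBIA at 0.083, RELA at 0.12 and RELB at 0.000399. The differences of NFKBIA, REL, RELA and RELB were -0.22, -0.12, -0.14 and -0.25, and TNFAIP3 with THZ1 was at -0.13. With each gene's own variance in limma, 0 members passed per cell in any comparison (1, 3 and 1 at an unadjusted p under 0.05 with THZ1, with siMITF and for the difference), and 1 was lower with siMITF on the relative scale. With a robust trend 0 members had a higher per-cell difference in limma (1 at an unadjusted p under 0.05), and 2 a higher relative one.

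The labels number the arrays of each group 1 and 2. Same-numbered arrays deviated together with r 0.11 between DMSO and THZ1 and -0.18 between siCtrl and siMITF, and with 2 pairs they were not taken as paired. With the replicate number as a block, 2 members were lower with THZ1 on the relative scale (REL gained, limma adjusted p 0.0395), and RELB passed with siMITF per cell (0.0434), as it did in 8 of 18 alternatives in all. Pairing crossed in the siRNA arrays, chosen after seeing the data, gave 7 members lower with THZ1 per cell and 2 relative. Its differences were 1 lower and 3 higher per cell, and 2 higher relative. Calls rose among all 11946 genes too, with 4539 lower with THZ1 per cell and 2608 relative. Of the per-cell differences of all genes 805 were lower and 7412 higher, and 2649 of the relative ones were higher.

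Leaving out each array in turn gave 0 to 1 members lower with THZ1 per cell and 1 to 2 relative, 2 to 6 lower with siMITF per cell and 1 to 2 relative, and 0 to 2 with a higher difference per cell and 1 to 2 relative. Values that changed sign ranged from -0.62 to 0.071 (NFKB1 with THZ1 per cell), -0.21 to 0.069 (NFKB1 with THZ1 relative), -0.37 to 0.11 (TNFAIP3 with THZ1 per cell), -0.033 to 0.026 (REL with siMITF relative), -0.067 to 0.027 (RELA with siMITF relative), -0.20 to 0.11 (NFKB2 difference per cell), -0.19 to 0.29 (RELB difference per cell) and -0.21 to 0.022 (NFKBIA difference relative). The median gene with THZ1 per cell was -0.32 and -0.014 when DMSO replicate 1 or 2 was left out, and 0.039 and -0.37 when THZ1 replicate 1 or 2 was. With an infinite prior the per-cell SE carries no uncertainty of its own, and the per-cell p-values, not only the smallest, are too small for that reason. The spread between arrays of a group is in part an offset shared by most genes, so the genes are not independent evidence on it. With each gene's own variance in limma, the per-cell siMITF changes of REL, RELA and NFKBIA had adjusted p of 0.0893, 0.112 and 0.117. NFKB2, RELB, REL and the dimmer IL6 probe set lay near the signal cut, where log2(signal + 16) understates changes.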
